A study of Homo sapiens with 22 samples.

Results

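The beta-globin domain was examined as a stretch of human chromosome 11 (hg38) in which transposon insertions had been mapped in K562 cells, a human leukemia line of erythroid-like character. Members were all insertions that start from 5200001 to 5330001 on chr11, counted from 1, in the 20 libraries of a known helper. This gave 30348 insertions of the 52154230 in those libraries, or 992 to 1724 for each of the 10 hyPBase libraries and 973 to 1906 for each of the 10 hyPBase-centrip libraries. The domain holds 5 globin genes, HBB, HBD, HBG1, HBG2 and HBE1, all on the minus strand, and the locus control region upstream of HBE1.

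Per the labels, every library was made from K562 cells electroporated with 5 ug of a barcoded piggyBac donor plasmid that carries puromycin resistance and 5 ug of a helper plasmid for the transposase, either hyPBase or hyPBase-centrip. What sets hyPBase-centrip apart is not described in the sources used here. All cells were kept in puromycin at 2 ug/ml for 11 days, and 3 transfections shared a dish and an RNA preparation, so cells of several transfections were pooled. A donor-only transfection is described but has no library among those analysed here, so no background without transposase was measured. The labels name no separate cultures behind the replicate numbers, and p-values below therefore measure only the spread between these libraries, which may be technical.

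The piggyBac transposase inserts at TTAA tetranucleotides. The globin genes are arranged in the order of their use in development, from embryonic HBE1 through fetal HBG2 and HBG1 to HBD and adult HBB. The locus control region is a group of DNase-hypersensitive sites, called HS1 to HS5 with distance from HBE1, that drives globin transcription in red cell precursors. K562 cells are known for making embryonic and fetal globins and little adult beta-globin. No RNA level was measured directly in these libraries.

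The TTAA sites that took up the most insertions in the control region lay from 5.34 to 19.4 kb upstream of the HBE1 start. They are printed as the plus strand of hg38 with the TTAA in capitals, because these tetranucleotides are the exact targets on which the densities rest. The first stands at chr11:5289382-5289385, the second in HS2 at chr11:5280947-5280950, the third in HS1 at chr11:5275497-5275500, the fourth in HS4 at chr11:5288145-5288148 and the fifth in HS1 at chr11:5275285-5275288. All 5 lie outside the MANE Select transcripts, the single reference transcript chosen for each gene, although longer annotated transcripts of HBE1 and HBG2 span them.
Control region site 1: agacaacacatctTTAAtataccaaatggg
Control region site 2: aactgaagcttatTTAAtcagagatgagga
Control region site 3: cagaccaccttcaTTAAcgagatcatccat
Control region site 4: cctgttatttcttTTAAaataaatatatca
Control region site 5: ttggtgatcttttTTAAattctgaaacaac

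Site 1 held 574 insertions, with a lowest, median and highest count of 20, 27.5 and 31 in the hyPBase libraries and 23, 31.5 and 34 in the hyPBase-centrip libraries. Site 2 held 538, site 3 held 518, site 4 held 497 and site 5 held 462. Each of the 5 was hit in all 20 libraries, and the counts of the helpers overlapped at every one of them. Together they made up 20.6% of the insertions of the control region.

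Sites with the most insertions in the other segments are printed for comparison. They stand in the 3′ flank (chr11:5224721-5224724), in the spacer between HBD and HBG1 within an exon of the noncoding gene BGLT3 (chr11:5245399-5245402), in the spacer between HBG2 and HBE1 (chr11:5256490-5256493) and in an HBD intron (chr11:5233842-5233845).
3′ flank site: ctgaatgctaatcTTAAacatcctgaggaa
BGLT3 site: caggtcatgtcctTTAAtggccctaaaact
HBG2-HBE1 spacer site: tagagcctgacctTTAAgaatgtgtcagag
HBD intron site: aaatgcagaatatTTAAataaaaaattaac

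The 3′ flank site held 522 insertions and the HBG2-HBE1 spacer site 502, as many as the leading sites of the control region. The BGLT3 site held 340. The HBD intron site held 29, found in 15 of 20 libraries. Sites that share the TTAA target thus differed widely in use within the domain.

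Across the libraries, depth ran from 1509672 to 3596762 insertions, and the hyPBase-centrip libraries were deeper (median 2779460) than the hyPBase libraries (median 2499130). To scale for depth, insertions per TTAA site were divided by a mean of the same library. That mean was insertions per TTAA site over chromosomes 1 to 22, X and Y. This relative density is 1 at the genome mean. Depth was not removed in full, since the domain's share of insertions tended to be lower in deeper libraries of a helper. The share was 0.0658% in the shallowest and 0.0593% in the deepest hyPBase library. For hyPBase-centrip these were 0.0594% and 0.0530%. Of the 858 TTAA sites of the domain, 752 were hit. The domain held 0.00447% of the TTAA sites and 0.0582% of the insertions, and its pooled relative density was 13.04. Erythroid marker genes were dense in insertions (median relative density 5.78, 5 of 6 above the genome mean) and lymphoid markers were sparse (0.582, 1 of 5 above it), while the 4 myeloid markers lay between 1.16 and 2.24 (median 1.83). The exception among the erythroid genes was GATA1, which has only 3 TTAA sites and 5 insertions. The median over the 17466 protein-coding genes with at least 5 TTAA sites was 1.13, and 9810 of them lay above the genome mean.

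**Figure D1:**
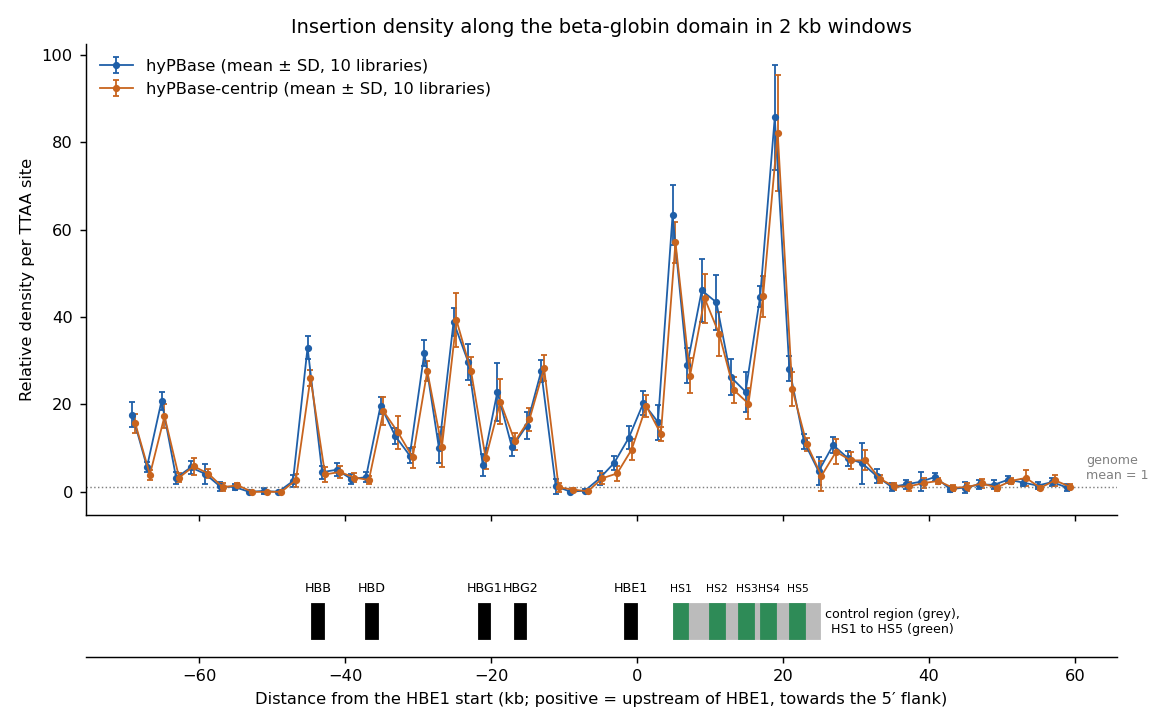
Relative density of insertions per TTAA site (y axis; 1 is the genome mean) in 2 kb windows against distance from the HBE1 start in kb (x axis), as mean ± SD of 10 libraries for each helper. Black boxes are the globin genes, the grey box is the control region and green boxes are HS1 to HS5; both helpers peak 19.055 kb upstream of HBE1 and fall near 0 in windows on the 3′ side of HBB and HBE1 that hold few unique sites.

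The control region was the densest segment of the domain with both helpers. Taken as the 20000 bases from 5 to 25 kb upstream of the HBE1 start (chr11:5274946-5294945), it held 12555 insertions, 41.4% of the domain, at 122 of its 124 TTAA sites. The hyPBase libraries had from 433 to 727 insertions there with a median of 639.5, and the hyPBase-centrip libraries from 437 to 768 with a median of 647. Relative density was 39.3 ± 2.90 (SD, n = 10) for hyPBase, and for hyPBase-centrip 36.4 ± 2.71 (SD, n = 10). No library of either helper was below 32.6, and the combined density of both flanks was at most 5.78 in any library.

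Against the flanks of the same library, the density of the control region was higher by 2.86 ± 0.103 (SD, n = 10) on the log2 scale with hyPBase, in 10 of 10 libraries (exact two-sided sign-flip permutation test, adjusted p = 0.00293). With hyPBase-centrip it was higher by 2.93 ± 0.163 (SD, n = 10), again in 10 of 10 (exact sign-flip permutation test, adjusted p = 0.00293). The smallest p this test can give with 10 libraries is 0.00195 before adjustment. The difference between the helpers in this ratio was 0.07 (permutation test with 100000 resamples, p = 0.313, adjusted p = 0.321). The direction and the call held for both helpers with each flank alone, with the region drawn from 4 to 30 kb, on sites with unique flanking sequence only and with at least 2 reads per insertion.

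The size of this difference depends on how insertions are counted. A deposited insertion is a combination of site, orientation and barcode, so a site can show no more insertions per orientation than the library has barcodes, 21 to 23 of which were seen in the domain in each library. In the control region 7.77% of the 3116 hit combinations of site, orientation and library held more than 50% of the barcodes, against 1.92% of 2869 in the flanks and 0 of 450 in the genes. With barcodes collapsed the log2 difference was 1.83 and 1.81, and with an estimate of the insertions behind the occupied barcodes it was 3.04 and 3.22, in the order hyPBase and hyPBase-centrip.

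Among 281426 bins of 10 kb with at least 20 TTAA sites, 53 were as dense as or denser than chr11:5280001-5290000, whose relative density was 42.5 and which holds HS3, HS4 and most of HS2. The neighbouring bin chr11:5270001-5280000 had a relative density of 33.6, with 132 bins as dense or denser. Both bins lie in the control region or at its HBE1 side.

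**Figure D2:**
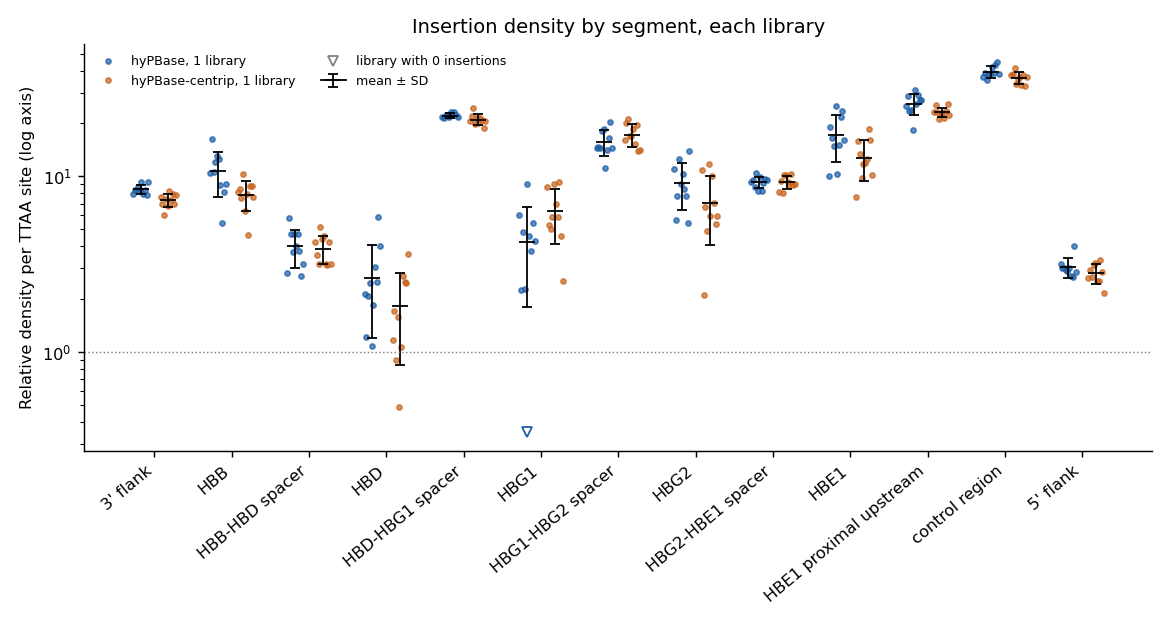
Relative density per TTAA site (log y axis) in the 13 segments of the domain in order from the 3′ flank to the 5′ flank. Each point is 1 library, bars are mean ± SD of 10 libraries per helper, and the open triangle is the hyPBase library with 0 insertions in HBG1; the control region stands highest and HBD lowest with both helpers.

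Within the control region, the hypersensitive sites were unequal. They were drawn as windows of 2000 bases around textbook distances of 6, 11, 15, 18 and 22 kb upstream of HBE1. HS4 had the highest pooled relative density (74.4 over 11 TTAA sites), followed by HS1 (42.5 over 16), HS2 (39.0 over 12), HS3 (21.1 over 11) and HS5 (14.97 over 15). The rest of the control region stood at 37.4 over 59 sites, so windows of this width as a class did not exceed the sequence outside them. Control region site 1, 19.4 kb upstream of HBE1, lies outside the windows and counts in the rest. HS4 was denser than the rest of the control region by 0.96 ± 0.115 (SD, n = 10) for hyPBase, and for hyPBase-centrip 1.03 ± 0.130 (SD, n = 10) on the log2 scale, in 20 of 20 libraries (exact sign-flip permutation test, adjusted p = 0.00244 for each helper).

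HS5, which is known for binding the insulator protein CTCF, was sparser than the rest by 1.30 and 1.37 on the log2 scale in the same order, in all 20 libraries. HS3 was sparser by 0.78 and 0.87, also in all 20. The exact sign-flip permutation test gave an adjusted p of 0.00244 for each of these. With barcodes collapsed, HS3 in the hyPBase-centrip libraries was sparser by 0.12 and no longer passed (exact sign-flip permutation test, adjusted p = 0.305).

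HS1 and HS2 were close to the rest of the region. HS1 was denser by 0.21 and 0.17 (exact sign-flip permutation test, adjusted p = 0.00244 for both helpers), but with barcodes collapsed the values were -0.04 and 0.02 and neither passed. HS2, the element with the strongest classical enhancer activity, differed by 0.15 with hyPBase (adjusted p = 0.00868, exact sign-flip permutation test) and by -0.02 with hyPBase-centrip (adjusted p = 0.715). In windows of 0.5 kb on either side HS2 was denser by 1.58 and 1.47, and its value with barcodes collapsed was -0.27 and -0.40. Control region site 2 lies 11.002 kb upstream of HBE1, near the centre of the HS2 window. It alone held 42.4% of the insertions of the 2000-base window. Adjacent places in the order of the windows differed in both helpers for HS4 and HS1, HS2 and HS3, and HS3 and HS5. That order was set by pooled density in these same libraries, so the tests of neighbours favour it. HS1 and HS2 differed with hyPBase-centrip (0.20, exact sign-flip permutation test, adjusted p = 0.0179) and not detectably with hyPBase (0.06, adjusted p = 0.186).

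Upstream of HBE1, the 5000 bases before the control region had a relative density of 26.0 ± 3.53 (SD, n = 10) for hyPBase, and for hyPBase-centrip 23.2 ± 1.47 (SD, n = 10). On the far side, the 5′ flank (chr11:5294946-5330001) fell to 3.03 ± 0.384 and 2.81 ± 0.364, still above the genome mean in every library. The 3′ flank (chr11:5200001-5225463) had 8.44 ± 0.521 and 7.31 ± 0.649 (SD, n = 10 each). In this flank the insertions were concentrated, with 1026 in the window chr11:5204001-5206000 and 679 in chr11:5200001-5202000, and its leading site alone gave 14.0%. Windows from chr11:5216001 to chr11:5222000 held 2 insertions and no TTAA site with unique flanks, and the window chr11:5260001-5262000 held 14 insertions with 5 unique sites of 17. What the low values there owe to mapping was not tested, but the comparison with the flanks held on unique sites alone.

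In the pooled libraries all 5 globin genes lay above the genome mean and far below the control region. Of the 17466 protein-coding genes compared, 9810 lay above that mean. Their pooled relative densities over the MANE Select span were 14.6 for HBE1, 9.24 for HBB, 8.16 for HBG2, 5.37 for HBG1 and 2.18 for HBD. These are densities per TTAA site, which range from 7 to 14 sites per gene. The share of the 17466 genes with a lower density was 99.3% for HBE1, 98.3% for HBB, 97.9% for HBG2, 95.3% for HBG1 and 78.7% for HBD.

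HBE1 encodes the embryonic epsilon chain (chr11:5268345-5269945). It had 278 insertions, from 9 to 25 in the hyPBase libraries with a median of 14.5 and from 7 to 21 in the hyPBase-centrip libraries with a median of 12.5. Its density was above that of the flanks by 1.66 ± 0.456 (SD, n = 10) for hyPBase, and for hyPBase-centrip 1.43 ± 0.377 (SD, n = 10) on the log2 scale, in all 20 libraries (exact sign-flip permutation test, adjusted p = 0.00293 for each). Of its insertions 142 were at a site in a coding exon and 44 at a site in a UTR, while its 5 intron sites shared 92.

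HBG1 and HBG2 encode the fetal gamma chains and are nearly identical copies, so reads can be split or lost between them. Only 3 of the 7 TTAA sites in each had unique 31-base flanks. HBG1 (chr11:5248269-5249857) had 102 insertions, with lowest, median and highest counts of 0, 4 and 9 for hyPBase and 3, 6.5 and 10 for hyPBase-centrip. HBG2 (chr11:5253188-5254781) had 155, with 3, 9 and 13 for hyPBase and 2, 6.5 and 13 for hyPBase-centrip. The helpers overlapped in both genes. In the library with 0 insertions, a count of 0 allows up to 3.

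HBG2 was denser than the flanks by 0.80 ± 0.398 (SD, n = 10) on the log2 scale with hyPBase (exact sign-flip permutation test, adjusted p = 0.00293) and by 0.55 ± 0.653 (SD, n = 10) with hyPBase-centrip (adjusted p = 0.0362). HBG1 differed by -0.40 ± 0.979 (SD, n = 10) with hyPBase (exact sign-flip permutation test, adjusted p = 0.225) and was denser by 0.44 ± 0.487 (SD, n = 10) with hyPBase-centrip (adjusted p = 0.0328). The comparison turned on the flank. Against the 3′ flank alone neither gene was denser with either helper, and HBG1 was sparser with hyPBase (-1.04, exact sign-flip permutation test, adjusted p = 0.0067). With hyPBase-centrip both gamma calls were also lost with at least 2 reads and under the estimate for occupied barcodes, and under that estimate HBG1 with hyPBase was sparser (-0.68, exact sign-flip permutation test, adjusted p = 0.0445).

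HBB, which encodes adult beta-globin (chr11:5225464-5227071), had 351 insertions, from 7 to 29 in the hyPBase libraries with a median of 21 and from 9 to 23 in the hyPBase-centrip libraries with a median of 15.5. It was denser than the flanks by 0.97 ± 0.410 and 0.74 ± 0.291 (SD, 10 libraries each) on the log2 scale, in 10 of 10 of either helper (exact sign-flip permutation test, adjusted p = 0.00293 for each). A site in its UTR (chr11:5225567-5225570) carried 201 of them, or 57.3%. The 13 intron sites averaged 11.5 insertions over the 20 libraries. Against the 3′ flank alone the HBB difference did not pass (0.32 and 0.12, exact sign-flip permutation test, adjusted p = 0.0557 and 0.298).

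HBD, which encodes the delta chain of the minor adult hemoglobin (chr11:5232838-5234483), was the sparsest. It had 77 insertions at 11 of 13 sites, all in introns, with lowest, median and highest counts of 2, 4 and 7 for hyPBase and 1, 3 and 8 for hyPBase-centrip. Its density was below that of the flanks by 1.02 and 1.33 on the log2 scale, in 9 of 10 and 10 of 10 libraries (exact sign-flip permutation test, adjusted p = 0.00521 and 0.00293). Against the 5′ flank alone it did not pass with either helper. The genes were ordered by pooled density in these same libraries, so the tests of neighbours favour that order. They are no independent support for it. The order also mixes kinds of site, since only HBB and HBE1 have TTAA sites in MANE Select exons. On intron sites alone the order was another, with 22.1 insertions per site over the 20 libraries for HBG2 and 18.4 for HBE1. HBG1 followed at 14.6, HBB at 11.5 and HBD at 5.92. The intron order was not tested, and the tests that follow take each gene whole. HBE1 exceeded HBB with both helpers (0.69 and 0.70 on the log2 scale, exact sign-flip permutation test, adjusted p = 0.0195 for each). HBB and HBG2 could not be separated (0.17 and 0.19, adjusted p = 0.576 and 0.584). HBG2 exceeded HBG1 with hyPBase (1.20, exact sign-flip permutation test, adjusted p = 0.0195), while the value with hyPBase-centrip was 0.11 (adjusted p = 0.584), and whether the helpers differ in this was not tested. HBG1 exceeded HBD with hyPBase-centrip (1.77, exact sign-flip permutation test, adjusted p = 0.0195), and with hyPBase the value was 0.62 (adjusted p = 0.244).

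The spacers between the genes took up more insertions per site than the genes. Their relative density was 13.3 ± 0.338 (SD, n = 10) for hyPBase, and for hyPBase-centrip 12.97 ± 0.611 (SD, n = 10), against 8.30 ± 1.07 and 6.60 ± 0.694 for the 5 genes together. The genes were lower in all 20 libraries, by 0.68 and 0.96 on the log2 scale (exact sign-flip permutation test, adjusted p = 0.00244 for each). The spacer between HBD and HBG1 was the densest, with 5351 insertions at 91 of 92 sites and a pooled relative density of 21.4. The HBG1-HBG2 spacer stood at 16.2, above both of its genes. The HBG2-HBE1 spacer stood at 9.25, below HBE1 at 14.6. Of the 90 TTAA sites of this spacer 54 had unique flanks, against 7 of 7 in HBE1. What this order owes to mapping was not tested. The spacer between HBB and HBD was the sparsest at 3.98, below HBB at 9.24. BGLT3, a noncoding gene of the HBD-HBG1 spacer (chr11:5244554-5245546), held 917 insertions at 7 sites, a relative density of 48.2 ± 3.74 (SD, n = 10) for hyPBase, and for hyPBase-centrip 49.9 ± 8.28 (SD, n = 10). The pseudogene HBBP1 beside it (chr11:5242120-5243537) held 140 at 5 sites, with a pooled relative density of 10.3.

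Directly upstream of the gene starts, density was higher than in the genes except at HBB. In the 1 kb upstream of HBD there were 713 insertions and the relative density was 19.3 ± 2.39 (SD, n = 10) with hyPBase. The 77 insertions of the gene itself gave 2.63 ± 1.42 (SD, n = 10) in the same libraries. The log2 difference was 2.87 with hyPBase and 3.28 with hyPBase-centrip, in 20 of 20 libraries (exact sign-flip permutation test, adjusted p = 0.00234 for each). For HBG1 it was 2.91 and 2.33 over 3 upstream sites, for HBG2 0.84 and 1.34, and for HBE1 0.66 and 1.12. For these 3 genes the upstream window was denser in 10 of 10 libraries of each helper, except HBE1 with hyPBase, where it was 9 of 10 (exact sign-flip permutation test, adjusted p = 0.00586 there and 0.00234 for the others). A single TTAA site gave 91.2% of the insertions upstream of HBG1 and 65.8% upstream of HBG2. The leading site gave 35.1% upstream of HBD and 37.0% upstream of HBE1. Values without the leading sites are not reported here. At HBB the 1 kb upstream was sparser than the gene, by 1.05 and 0.98 (exact sign-flip permutation test, adjusted p = 0.00586 and 0.00234), with 54 insertions at 5 sites. With barcodes collapsed the HBB values were 0.09 and -0.10 and neither passed.

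**Figure D3:**
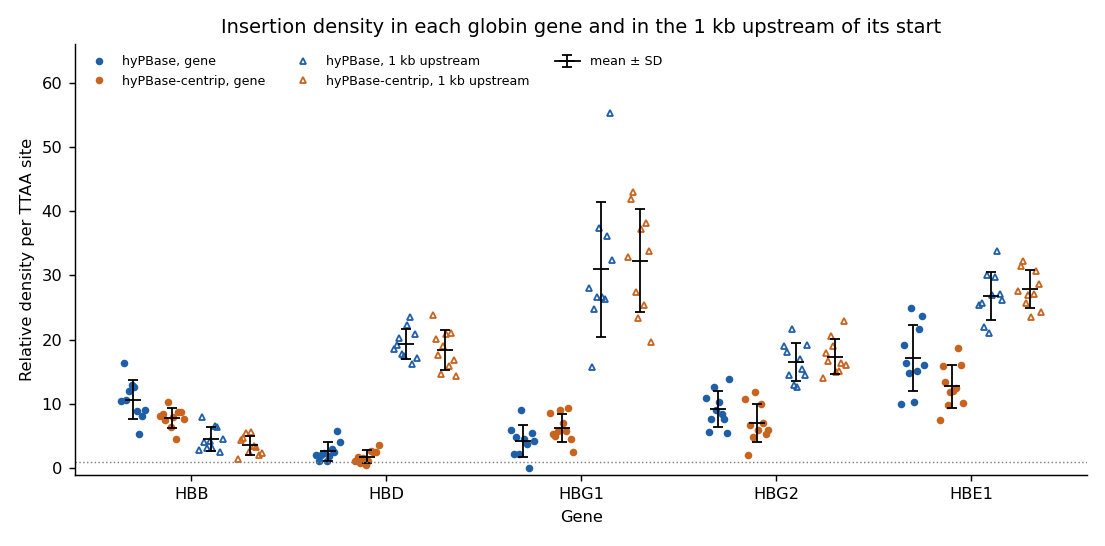
Relative density per TTAA site (y axis) in each globin gene (filled circles) and in the 1 kb upstream of its start (open triangles), 1 point per library, with mean ± SD of 10 libraries per helper. Upstream values stand above gene values at HBD, HBG1, HBG2 and HBE1 on average and below them at HBB; the dotted line is the genome mean of 1.

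The HBD promoter is printed because 2 of its TTAA sites took up more insertions than the whole gene. These are the 250 bases before the gene start on its own strand (minus strand, chr11:5234484-5234733 of GRCh38.p14, from RefSeq), with TTAA in capitals. The site nearer the gene, 70 bases upstream, held 250 insertions (68.8% on the plus strand) and the other, 134 bases upstream, held 186 (77.4% on the plus strand). The hyPBase libraries had from 6 to 18 insertions at the nearer site and the hyPBase-centrip libraries from 10 to 17. TTAA, which reads the same on both strands, occurred in 43.3% of 35116 such promoter windows.
HBD promoter: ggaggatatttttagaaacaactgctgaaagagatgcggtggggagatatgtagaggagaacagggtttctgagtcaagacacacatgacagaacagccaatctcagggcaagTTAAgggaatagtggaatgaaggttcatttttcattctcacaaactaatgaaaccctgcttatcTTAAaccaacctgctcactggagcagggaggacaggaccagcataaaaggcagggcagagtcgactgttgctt

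The orientation of an insertion was read from the deposited strand symbol, taken as the strand of the transposon. The files do not state this convention. On that reading a plus-strand insertion lies opposite to the globin genes, which run on the minus strand. If the symbol stood for the other strand, plus and minus, and opposite and same, would change places in every orientation result, with distances from 50% unchanged in size. Insertions in the genes were mainly plus-strand, with 73.4% ± 5.31 (SD, n = 10) for hyPBase, and for hyPBase-centrip 76.5% ± 6.25 (SD, n = 10), above 50% in 20 of 20 libraries (exact sign-flip permutation test, adjusted p = 0.00316 for each). In the spacers the share was 54.1% ± 2.68 and 53.7% ± 1.74. The difference of genes and spacers was 19.2 and 22.8 percentage points (exact sign-flip permutation test, adjusted p = 0.00244 for each).

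HBG1 stood at the extreme, with 101 of 102 insertions on the plus strand (99.0%, 95% Wilson interval 94.7 to 99.8, counting error only). HBG2 had 94.8%, HBD 88.3%, HBE1 66.9% and HBB 61.3%. Over the 14875 protein-coding genes with at least 50 insertions, the median share opposite to the gene on the same reading of the symbol was 69.7% and the 5th and 95th percentiles were 37.8% and 91.5%. In 22 of these genes, HBG1 included, the share was as high as in HBG1. HBB and HBE1 were thus below the median of all genes and both gamma genes above the 95th percentile. The gamma shares include sites without unique flanks, which were 3 of 7 unique in each gene. At the unique sites the plus-strand shares were 90.9%, 94.4% and 92.9% in HBG2 and 100% at each in HBG1. Where the unique sites alone would stand among all genes was not tested.

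Orientation differed between MANE Select introns and exons, but the exon values rest on 3 TTAA sites, the same ones in every library. The HBE1 UTR site, at 81.8% plus-strand, went with the introns. All intron sites of HBG1 and some of HBB lie in exons of other annotated transcripts of the same gene. In introns the plus-strand share was 92.7% ± 4.51 (SD, n = 10) for hyPBase, and for hyPBase-centrip 89.2% ± 5.44 (SD, n = 10). In exons, which hold only 3 TTAA sites, all in HBB and HBE1, it was 48.4% ± 13.1 and 54.8% ± 9.55, which could not be separated from 50% (exact sign-flip permutation test, adjusted p = 0.705 and 0.171). Introns exceeded exons by 44.2 and 34.4 percentage points, in 20 of 20 libraries (exact sign-flip permutation test, adjusted p = 0.00244 for each). At the HBB UTR site 97 of 201 insertions were plus-strand, and in the HBB introns 118 of 150. At the HBE1 coding-exon site 63 of 142 were plus-strand, in the HBE1 introns 87 of 92, and at the HBE1 UTR site 36 of 44.

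**Figure D4:**
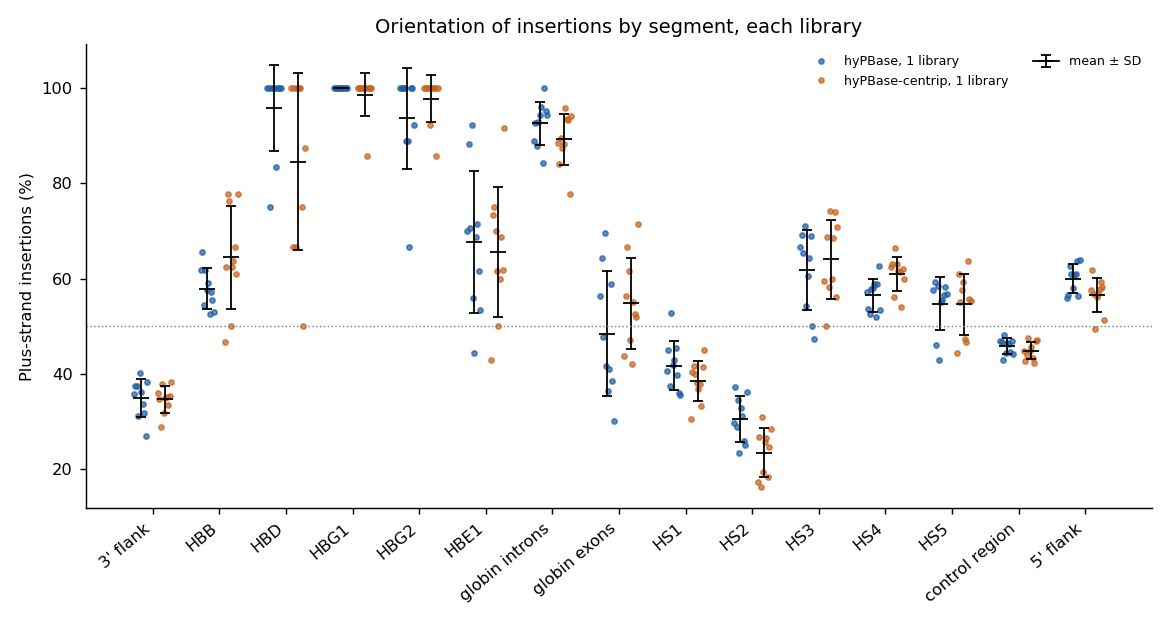
Percent of insertions with the plus-strand symbol (y axis), which is opposite to the globin genes if the symbol gives the strand of the transposon, in segments of the domain, 1 point per library, with mean ± SD of 10 libraries per helper (9 hyPBase libraries for HBG1). The dotted line is 50%. Introns stand near 90% and the 3 exon sites together near 50%. HS2 is lowest and HS3 and HS4 lie above 50% on average.

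In the control region the balance was the other way, with a small excess on the minus strand. The plus-strand share was 45.8% ± 1.65 (SD, n = 10) for hyPBase, and for hyPBase-centrip 44.9% ± 1.87 (SD, n = 10), below 50% in 20 of 20 libraries (exact sign-flip permutation test, adjusted p = 0.00316 for each). It changed along the region. In the 4 windows of 2 kb from chr11:5274001 to chr11:5282000 the pooled share was 38.8%, 33.4%, 20.2% and 27.4%. In the next 4, up to chr11:5290000, it was 53.1%, 65.1%, 60.1% and 50.6%. Among the 5 HS windows HS2 had the lowest plus-strand share, at 30.5% ± 4.79 and 23.4% ± 5.17 (SD, n = 10 for either helper), with an adjusted p of 0.00391 in the exact sign-flip permutation test. HS1 was also below 50%, at 41.7% and 38.5%, while HS3 (61.8% and 64.0%) and HS4 (56.5% and 61.0%) were above it. All of these passed the exact sign-flip permutation test. HS5, at 54.7% and 54.6%, passed with hyPBase (adjusted p = 0.0369) and not with hyPBase-centrip (adjusted p = 0.0586).

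The flanks went in opposite directions. The 3′ flank had 34.9% ± 4.03 and 34.7% ± 2.79 plus-strand insertions and the 5′ flank 59.95% ± 3.06 and 56.5% ± 3.64 (SD, 10 libraries each), and all 4 shares passed against 50% (two-sided exact sign-flip permutation test, adjusted p from 0.00316 to 0.00531). The 1026 insertions of the window chr11:5204001-5206000 were 14.1% plus-strand. With barcodes collapsed, which leaves at most 1 insertion per orientation at a site and so draws full sites to an even share, the control region could not be separated from 50% (exact sign-flip permutation test, adjusted p = 0.498 and 0.19), whereas with the estimate for occupied barcodes its distance from 50% was -7.59 and -9.30 percentage points.

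Reads per insertion also differed by place and orientation. The control region had 5.08 ± 1.15 (SD, n = 10) reads per insertion for hyPBase, and for hyPBase-centrip 4.205 ± 0.957 (SD, n = 10). In the same order the flanks had 3.86 ± 0.855 and 3.01 ± 0.633, and the globin genes 2.93 ± 0.855 and 2.09 ± 0.305. The control region exceeded the flanks in all 20 libraries (exact sign-flip permutation test, adjusted p = 0.0026 for each), and the genes were below them (adjusted p = 0.00586 and 0.0026). Minus-strand insertions of the control region had more reads than plus-strand ones, 5.90 against 4.11 with hyPBase and 4.84 against 3.44 with hyPBase-centrip (exact sign-flip permutation test, adjusted p = 0.0026 for each). In the genes the order was turned, with 3.01 plus against 2.77 minus for hyPBase (adjusted p = 0.328) and 2.20 against 1.77 for hyPBase-centrip (adjusted p = 0.00893). Reads per insertion did not follow density throughout, since the genes together were denser than the flanks and had fewer reads. Insertions that share site, orientation and barcode in a library are counted together, so their reads are added. Hit combinations of site and orientation with most barcodes occupied were more frequent in the control region than in the flanks, and absent in the genes. How much of the differences in reads by place and orientation goes with this was not tested.

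The helpers gave similar maps, with small differences in level. The relative density of the domain ran from 12.9 to 14.7 with hyPBase (13.7 ± 0.635, SD, n = 10) and from 11.9 to 13.3 with hyPBase-centrip (12.6 ± 0.521, SD, n = 10). The ranges overlap, and the difference of -1.04 passed a permutation test with 100000 resamples (p = 0.00076, adjusted p = 0.00532 over the 13 segments and the domain). The hyPBase-centrip libraries were also deeper, and how much of this difference goes with depth was not tested. The 3′ flank differed by -1.13 (permutation test, p = 0.00018, adjusted p = 0.00252). No other segment passed, and the control region differed by -2.94 (permutation test, p = 0.0308, adjusted p = 0.0721). Reads per insertion were 3.90 with hyPBase and 3.05 with hyPBase-centrip over all insertions. With barcodes collapsed or at least 2 reads the domain difference was -0.64 and -0.73 and did not pass (permutation test, adjusted p = 0.113 and 0.168), and the 3′ flank difference was lost as well (adjusted p = 0.113 and 0.0696). Without hyPBase-centrip replicate 3, the shallowest library of that helper in the domain, the control region difference was -3.49 and passed (permutation test, adjusted p = 0.0292).

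In the test across all genes (edgeR quasi-likelihood test), 248 of 11461 protein-coding genes, or 2.16%, were called between the helpers, 1.37% lower and 0.794% higher with hyPBase-centrip. Of the members, HBB and HBE1 had enough insertions to be tested and neither was called. HBB had a log2 difference of -0.48 ± 0.152 (SE, adjusted p = 0.0653) and HBE1 of -0.40 ± 0.171 (SE, adjusted p = 0.214), hyPBase-centrip against hyPBase. With a term for library size HBB passed narrowly (-0.51, edgeR adjusted p = 0.0498). HBD, HBG1 and HBG2 did not reach 10 insertions in 10 libraries. Over bins of 10 kb, 731 of 69202, or 1.06%, were called, 0.747% lower and 0.309% higher with hyPBase-centrip, and 2 of the 13 bins of the domain were among them. Both were lower with hyPBase-centrip, chr11:5200001-5210000 by 0.22 ± 0.060 (SE, edgeR adjusted p = 0.0412) and chr11:5220001-5230000, which holds HBB, by 0.29 ± 0.068 (SE, edgeR adjusted p = 0.00814) on the log2 scale. Neither call held with at least 2 reads (-0.17 and -0.27), with barcodes collapsed (-0.21 and -0.15) or with no filter (-0.20 and -0.28), and the first was also lost on library size alone (-0.20) and without hyPBase-centrip replicate 3 (-0.19). In bins of 20 kb neither chr11:5200001-5220000 (-0.21, edgeR adjusted p = 0.0531) nor chr11:5220001-5240000 (-0.17, edgeR adjusted p = 0.0700) was called, while chr11:5260001-5280000, which reaches into the control region, was (-0.16, edgeR adjusted p = 0.0365). The 10 kb bins that cover the control region, chr11:5270001-5280000, chr11:5280001-5290000 and chr11:5290001-5300000, had values of -0.14, -0.11 and -0.20 (edgeR adjusted p = 0.131, 0.263 and 0.0909). The first of them passed without hyPBase-centrip replicate 3 (-0.15, edgeR adjusted p = 0.043). With a term for library size these bins were at -0.078, -0.043 and -0.20 (edgeR adjusted p = 0.353, 0.673 and 0.0895). The 2 called bins were at -0.22 and -0.29 with that term and still passed (edgeR adjusted p = 0.0328 and 0.0127).

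The plus-strand share of the control region was lower by 0.89 percentage points with hyPBase-centrip and that of the domain by 0.95, and neither difference passed (permutation test, adjusted p = 0.266 and 0.121). The density of HBG1 against the flanks differed between the helpers by 0.84 on the log2 scale (permutation test, p = 0.0154, adjusted p = 0.0922). On the sites with unique flanks it was 1.07 and passed (permutation test, adjusted p = 0.0482), on 3 sites.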

How the data were processed

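K562 libraries of self-reporting piggyBac transposons were analysed, 10 made with hyPBase and 10 with hyPBase-centrip. The authors deposited, for each library, 1 line per insertion with its hg38 position, the raw count of reads, its orientation and a barcode. The submitters' processing notes name Trimmomatic, BWA and SAMtools, with versions not given in the sources used here. Insertions are read from polyadenylated transcripts that start in the transposon, so those without such a transcript are not seen. Labels of 2 further libraries name different helpers, and these entered no comparison.

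TTAA sites were located in hg38 and MANE Select transcripts taken from GENCODE release 44. A site was unique where the 31 bases on each side occurred once in the genome. Relative density is insertions per TTAA site over that of chromosomes 1 to 22, X and Y. A pseudocount of 0.5 insertions was added before log2. Segments were compared within libraries by exact two-sided sign-flip permutation tests and helpers by permutation tests with 100000 resamples, with Benjamini-Hochberg adjustment within each family of tests and a threshold of 0.05. Insertions per gene and per 10 kb bin (at least 10 insertions in at least 10 libraries) were tested with edgeR 4.0.16 in R 4.3.3 (TMM, quasi-likelihood); DESeq2 1.42.0 was an alternative. On simulated counts for 11461 genes with 200 changed, edgeR recovered 86.5% at a fold change of 1.5 and 99.5% at 2, and 2.81% and 7.01% of its calls were false, the latter above the 5% aimed at. Python 3.11.15, numpy 2.4.6, scipy 1.17.1 and pandas 2.3.3 were used, and matplotlib 3.10.9 for figures. Wilson intervals cover counting error only.

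Named were the globin genes, genes in the domain by position, fixed lists of alpha-globin, regulator and marker genes, the 5 leading TTAA sites of the control region and the leading site of each other segment. The members and lists were chosen with earlier results of these data known. Comparisons of genes with spacers, introns with exons, upstream windows with genes, the HS windows' orientation and order, the order of genes and the helpers' ratios to the flanks were added later, as was the estimate for occupied barcodes. RefSeq promoter sequence was matched for 1 of the 5 members.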

Additional observations from a re-analysis of the deposited data

Results flagged for a closer look

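A check for single libraries outlying in their helper's set covered 46 sets of 10 and marked 1, where chance gives about 1 in 20. In the relative density of the 5 globin genes together, hyPBase-centrip replicate 8 stood at 8.35, with the nearest library at 7.02. The gap took up 0.548 of the range of that set.

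The 2 libraries whose labels name different helpers entered no comparison, yet both held insertions in the control region. There were 471 in the first and 381 in the second, where a count of 0 would allow up to 3.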

How the results depend on the processing

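Of the alternatives, the control region against the flanks stayed past the threshold in both helpers under all 7 (1.81 to 3.70 on the log2 scale). The relative density of the domain over 20 libraries (13.2) was 6.78 with barcodes collapsed, 14.0 with at least 2 reads, 14.4 on unique sites, 12.3 relative to chromosome 11 and 17.7 with the estimate for occupied barcodes, which was chosen after seeing the data. That of the control region (37.9) was 13.7 with barcodes collapsed, 42.6 with at least 2 reads and 55.9 with the estimate. With barcodes collapsed, the plus-strand share minus 50% was -0.48 and -0.77 points in the control region and 2.43 and 1.80 in the domain (hyPBase, then hyPBase-centrip), the latter in the opposite direction. By construction collapsing draws full sites to an even share; for the other changes the cause was not tested.

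With barcodes collapsed or at least 2 reads, the helper difference in the domain was -0.64 and -0.73 and no longer passed. In the control region it was -3.49 and passed without hyPBase-centrip replicate 3, and its difference in density against the flanks was -0.025 with barcodes collapsed. Genes called numbered 473 with a library size term and 22 with barcodes collapsed, and DESeq2 called 181. Bins called numbered 284 with no filter and 0 with barcodes collapsed (edgeR, 2375 at an unadjusted p under 0.05), and 507 by DESeq2.

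Smaller results also turned direction. Against the flanks, HBG1 was 0.073 with barcodes collapsed and 0.44 with the 5′ flank alone (hyPBase) and -0.17 with the 3′ flank alone (hyPBase-centrip), and HBG2 (hyPBase-centrip) was -0.10 with at least 2 reads and -0.062 with the 3′ flank alone. The plus-strand share minus 50% in hyPBase was -1.10 collapsed and -0.39 with the estimate in the HBD-HBG1 spacer, -1.29 collapsed in the HBG1-HBG2 spacer, -1.28 with at least 2 reads and -2.73 with the estimate upstream of HBE1, -0.17 collapsed in HS5, and 3.00 collapsed, 4.04 with at least 2 reads and 5.28 without the leading site in exons; upstream of HBE1 it was 2.17 collapsed in hyPBase-centrip. With barcodes collapsed in hyPBase, HS1 was -0.040 and HS2 -0.27 against the rest of the control region and HBB upstream 0.087 against the gene; HS2 was 1.47 in windows of 0.5 kb (hyPBase-centrip). The helper difference in the HBG2-HBE1 spacer was 0.21 collapsed and 0.21 with at least 2 reads, 0.081 on unique sites, 0.048 relative to chromosome 11, 0.36 with the estimate and 0.12 without hyPBase-centrip replicate 3. The bin from 5210001 was -0.043 with the library size term and that from 5320001 was -0.10 collapsed.

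Libraries of the helpers share replicate numbers only. Same-numbered libraries had correlations of their deviations from -0.0237 to 0.0334, and 2 of 10 correlated best with their own number. With the replicate block edgeR called 245 genes and 654 bins, and the HBE1 helper difference in relative density of -4.44 passed (exact sign-flip permutation test, adjusted p = 0.0273). Depth limits HBD, HBG1 and HBG2, with medians from 3 to 9 insertions per library.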

Other observations

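Around the domain, insertions stayed above the genome mean in most 10 kb bins. On the HBB side, the bins from chr11:5150001 to chr11:5200000 had relative densities from 2.76 to 8.77. On the far side of the control region, chr11:5330001-5340000 stood at 6.65, and chr11:5350001-5360000 fell to 0.406.

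The alpha-globin genes on chromosome 16 could hardly be measured by this method. HBZ, HBM and HBQ1 hold no TTAA site in their MANE Select span, and HBA1 and HBA2 hold 2 each, with 4 and 7 insertions in all 20 libraries. Among 9 regulators of the globin genes, 6 lay above the genome mean, beside 9810 of the 17466 protein-coding genes compared. The relative densities of the 9 ran from 30.7 at KLF1 down to 0.545 at BCL11A. KLF1 is an erythroid activator of HBB and has only 5 TTAA sites, and BCL11A is a repressor of the gamma genes. None of the 7 regulators tested between the helpers was called by edgeR.

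In the 2 libraries with conflicting labels, the relative density of the domain was 12.0 and 12.1 and that of the control region 30.7 and 31.9. The plus-strand share of the control region was 42.7% and 43.3%.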
